A study of Homo sapiens with 6 samples.

Results

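The genes described here are 10 immediate early genes, FOS, FOSB, FOSL1, JUN, JUNB, JUND, EGR1, EGR2, IER2 and IER3, which were chosen by name, with every array probe whose gene name equalled one of them. All 10 genes were on the array, each with 1 probe, so 10 of 47230 probes and 10 of 31334 gene names were followed. The 6 samples were cultures of the H1 line of human embryonic stem cells at passage 32, grown on Matrigel without feeder cells in conditioned medium with basic fibroblast growth factor. There were 3 samples with HERVH shRNA and 3 with control shRNA. HERVH is a family of human endogenous retroviruses transcribed in human embryonic stem cells. In the HERVH shRNA group the cells were dissociated with trypsin and transfected on the next day with 2 µg of a pSUPER plasmid that encodes a short hairpin RNA against HERVH. The control shRNA group had the same handling with a pSUPER plasmid against luciferase, a firefly enzyme. RNA was taken 5 days after transfection from both groups. No transfection rate and no selection of transfected cells is given in the sources used here, so each sample may mix cells that did and did not take up the plasmid. Nothing in the labels says that the 3 replicates came from separate cultures, so the p-values below measure the spread between these samples, which may be technical.

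Immediate early genes are switched on by growth factors, stress and adhesion without new protein synthesis, mostly through the ERK, JNK and p38 kinases acting on transcription factors already in the cell. FOS and JUN proteins join through leucine zippers to form the dimers called AP-1, which bind DNA, and JUN proteins can also pair with each other or with ATF proteins. FOS induction is brief, while FOSL1 is itself an AP-1 target that lasts longer. EGR1 and EGR2 are zinc finger transcription factors, IER2 encodes a nuclear protein, and IER3 encodes a protein tied to cell survival rather than a DNA-binding factor. The comparison asked which of these genes differed 5 days after transfection with HERVH shRNA.

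The 6 arrays had medians between 73.5 and 73.8 intensity units in HERVH shRNA samples and between 71.2 and 71.6 in control shRNA samples. Over all probes, log2 values correlated at 0.994 to 0.995 within a group and at 0.968 to 0.972 between groups. None of the gene names contained HERVH or HERV-H (0 of 31334), so depletion of the target was not read on this array. Differences were tested with limma on log2 intensities over all 47230 probes, with Benjamini-Hochberg adjustment, and a probe passed at an adjusted p under 0.05. By this rule 25.4% of all probes passed, 13.0% higher and 12.4% lower in HERVH shRNA samples. The balance turned with the scaling, to 4814 higher and 6640 lower with arrays centred on their medians, 5693 higher and 5925 lower with quantile normalization and 4368 higher and 5610 lower with the background subtracted. When only the 23615 probes above the median of mean log2 values were tested, 51.1% of them passed, 24.7% higher and 26.4% lower. Markers of undifferentiated stem cells were lower in HERVH shRNA samples for 7 of 9 genes, while TDGF1 and ZFP42 did not pass. POU5F1, with the widest difference among the brightest probes of these genes, had 1389 ± 34.8 in HERVH shRNA samples and 2926 ± 248 in control shRNA samples (mean ± SD, n = 3). The brighter SOX2 probe did not pass with the background subtracted (limma, adjusted p = 0.062). The brightest probes of the 9 genes summed to 22832 to 24415 in HERVH shRNA samples and to 36196 to 38792 in control shRNA samples.

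Of the 10 member probes, 6 passed, 4 higher (FOSL1, JUN, JUND and IER3) and 2 lower (FOS and IER2) in HERVH shRNA samples, beside the 25.4% of all probes that passed. All members but JUNB were among the brighter 23615 probes, and in that fit 7 of 9 passed, FOSB included, beside 51.1% of the brighter probes. In the fit over all probes FOSB, JUNB, EGR1 and EGR2 did not pass. The groups did not overlap for 7 of the 10 probes, FOSB being the seventh, while 36.6% of all probes had groups that did not overlap. The median log2 difference over the 10 probes was 0.0066, against 0.047 over all probes, with members on both sides of 0. The median absolute log2 difference was 0.53 over the 10 probes and 0.12 over all probes. FOS, FOSL1, JUN and IER3 differed by at least 1 on the log2 scale, as did 2.57% of all probes. Group overlap and the size of the differences were set beside all probes, dim ones included. They were not set beside the brighter probes alone, to which most members belong.

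**Figure D1:**
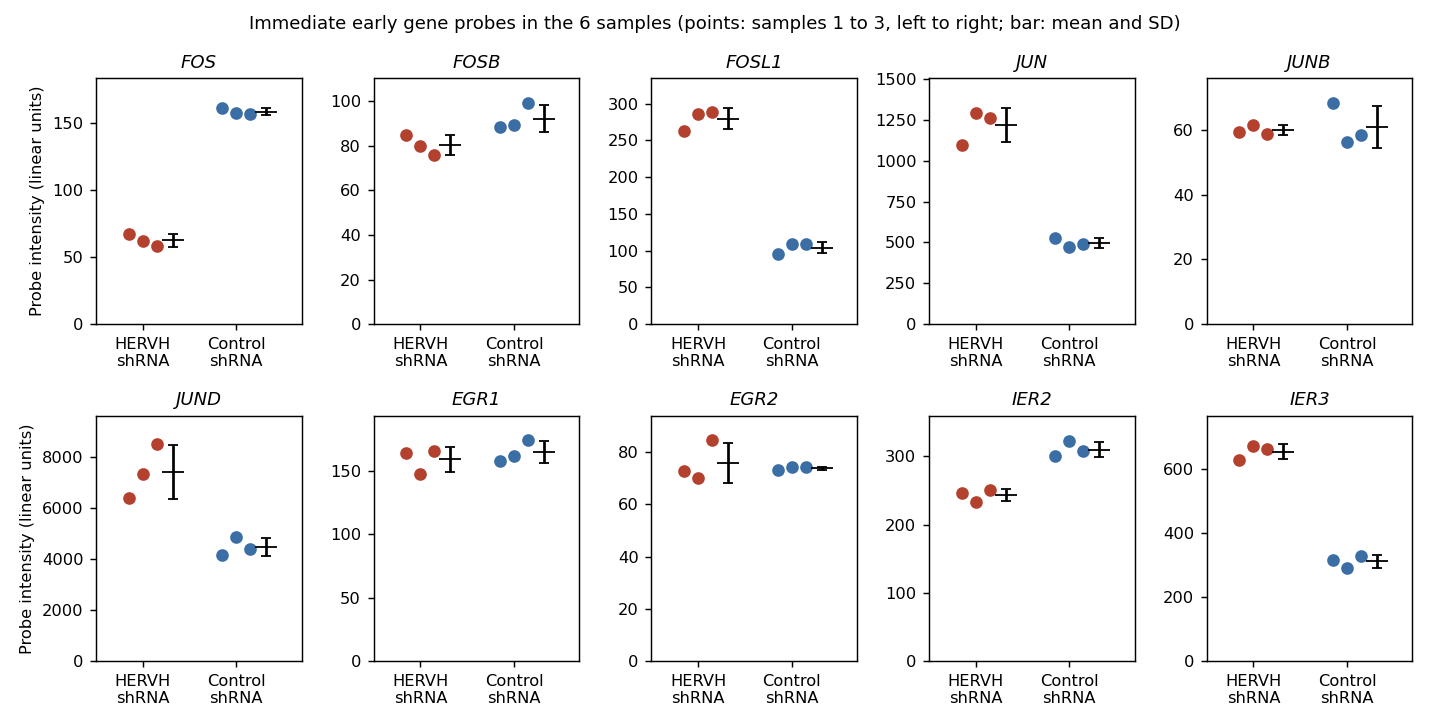
Probe intensity in linear units (vertical axis from 0, a separate scale for each gene) of the 10 immediate early genes in the 3 HERVH shRNA samples (red) and the 3 control shRNA samples (blue), with black marks for mean and SD. FOSL1, JUN, JUND and IER3 lie higher and FOS and IER2 lower in every HERVH shRNA sample than in any control shRNA sample.

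Within the FOS family, FOS fell and FOSL1 rose. FOS (probe ILMN_1669523), the family's founding member and the usual partner of JUN in AP-1, had 67.2, 61.9 and 57.9 intensity units in HERVH shRNA samples, against 161, 157 and 156 in control shRNA samples. All 3 HERVH shRNA samples were below all control samples. FOS fell to 0.39 of the control level, a log2 difference of -1.35 with an SE of 0.08 (limma, adjusted p = 2.2e-11). In bulk RNA such as this, fewer cells with FOS RNA and less FOS RNA per cell cannot be told apart. The signal in HERVH shRNA samples ranked between the 18.3 and 36.6 percentiles of its array, against 77.0 to 77.4 in control shRNA samples. Whether so dim a probe was above background was not assessed, since the deposited detection p-values were not used. With the 5th percentile of each array subtracted as background, a setting added after the data were seen, the log2 difference of FOS was -3.17, with HERVH shRNA values then near the floor.

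FOSL1, also called FRA1, had the opposite pattern. Its probe (ILMN_1771841) had 263, 286 and 289 intensity units in HERVH shRNA samples, against 94.8, 109 and 109 in control shRNA samples. The lowest HERVH shRNA sample was far above the highest control sample. FOSL1 rose 2.69-fold, with a log2 difference of 1.43 and an SE of 0.08 (limma, adjusted p = 1.5e-11). With the background subtracted, the log2 difference was 2.03.

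FOSB, which encodes a further FOS protein with a splice form that lacks part of its activating end, did not pass. Its probe (ILMN_1751607) had 85.0, 79.9 and 76.1 intensity units in HERVH shRNA samples and 88.4, 89.4 and 99.1 in control shRNA samples. The groups did not overlap, but the gap between them was only a few units. The log2 difference was -0.20, with a 95% interval from -0.37 to -0.03 (limma, adjusted p = 0.088). FOSB passed with arrays centred on their medians (adjusted p = 0.036) and when only the brighter probes were tested (adjusted p = 0.034), and over all alternatives its adjusted p ran from 0.034 to 0.31.

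The upstream sequence of FOS is shown for its cAMP response element half-site close to the TATA box. RefSeq (GRCh38.p14) gives these 250 bases before the start of FOS, at chr14:75278578-75278827 on the plus strand. Capitals mark matches to the cAMP response element half-site TGACG and to the TATA box TATAAA.
FOS: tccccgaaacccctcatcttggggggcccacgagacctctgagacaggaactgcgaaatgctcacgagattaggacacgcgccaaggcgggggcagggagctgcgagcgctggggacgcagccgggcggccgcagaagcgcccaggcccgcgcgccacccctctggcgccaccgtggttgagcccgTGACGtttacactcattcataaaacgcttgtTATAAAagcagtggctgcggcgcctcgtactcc
The half-site ended 60 bases before the start. Over all 35116 promoter entries of the same table, 21.2% held the half-site and 10.7% held TATAAA in the same 250 bases on either strand.

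Of the JUN family, JUN and JUND rose. JUN (probe ILMN_1806023), the AP-1 subunit activated by the JNK kinases, had 1099, 1295 and 1264 intensity units in HERVH shRNA samples, against 527, 472 and 491 in control shRNA samples. Every HERVH shRNA sample was above every control sample by a wide margin. JUN rose 2.45-fold, with a log2 difference of 1.29 and an SE of 0.09 (limma, adjusted p = 9.5e-11).

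JUND (probe ILMN_1810214), a family member that most cells express steadily and that is often linked to slower growth, had 6368, 7328 and 8508 intensity units in HERVH shRNA samples, against 4154, 4859 and 4387 in control shRNA samples. The HERVH shRNA samples spread more widely than the control samples, and the groups did not overlap. JUND rose 1.65-fold, with a log2 difference of 0.72 and a 95% interval from 0.52 to 0.93 (limma, adjusted p = 4.4e-06). Leaving out 1 sample at a time kept the log2 difference between 0.62 and 0.83.

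JUNB (probe ILMN_2086077), known as a weaker activator that can oppose JUN, had 59.4, 61.6 and 58.8 intensity units in HERVH shRNA samples, against 68.3, 56.2 and 58.4 in control shRNA samples. The groups overlapped, and the highest value was control replicate 1. The log2 difference was -0.02, with a 95% interval from -0.20 to 0.16 (limma, adjusted p = 0.91). Its probe lay below the median of its array in all 6 samples, and an adjusted p above the threshold does not show that JUNB was alike in both groups. Without control replicate 1 the sign turned, at 0.07 (adjusted p = 0.66).

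The upstream sequences of the pair that rose are shown to set their AP-1 and related motifs side by side. Both genes lie on the minus strand of GRCh38.p14, with JUN at chr1:58784048-58784297 and JUND at chr19:18281623-18281872, and RefSeq gives the 250 bases before each start. In JUN the capitals mark a TGACG half-site, the sequence TGACATCA through which JUN with ATF2 is known to act on the gene itself, and a match to the MEF2 box. In JUND they mark the full element TGACGTCA, which holds a half-site on each strand, and a further half-site read on the other strand.
JUN: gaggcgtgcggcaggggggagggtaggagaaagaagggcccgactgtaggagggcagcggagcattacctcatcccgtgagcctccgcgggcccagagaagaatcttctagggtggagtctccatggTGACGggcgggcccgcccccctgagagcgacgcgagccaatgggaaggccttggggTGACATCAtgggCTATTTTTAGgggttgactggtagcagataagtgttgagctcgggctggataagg
JUND: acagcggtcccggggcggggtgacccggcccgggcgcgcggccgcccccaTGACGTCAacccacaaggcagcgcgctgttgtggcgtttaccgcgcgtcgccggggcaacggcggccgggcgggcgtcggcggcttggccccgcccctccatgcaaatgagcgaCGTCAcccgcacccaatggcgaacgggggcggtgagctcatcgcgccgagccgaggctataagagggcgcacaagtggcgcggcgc
TGACATCA occurred in 2.37% of all promoter entries, TGACGTCA in 1.65% and the MEF2 box in 2.80%. Neither TGANTCA, the AP-1 site proper, which 6.57% of all entries held, nor a CArG box was matched in these windows. The promoter entries used here covered 8 of the 10 genes in 10 windows and lacked FOSL1 and IER3. All 8 genes held at least 1 TGACG half-site in a window. The further EGR2 windows held 0 matches to the motifs searched. Per window, 21.2% of all promoter entries held the half-site. Such matches describe letters and do not show that a factor bound.

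EGR1 and EGR2 did not pass. EGR1 (probe ILMN_1762899), which responds to serum, growth factors and stress, had 164, 147 and 165 intensity units in HERVH shRNA samples, against 158, 162 and 174 in control shRNA samples. The groups overlapped. The log2 difference was -0.05, with a 95% interval from -0.22 to 0.12 (limma, adjusted p = 0.73), which corresponds to 0.86 to 1.09 times the control level. The sign turned without HERVH shRNA replicate 2, at 0.0027 (adjusted p = 0.99).

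EGR2 (probe ILMN_1743199), known for its part in myelination and hindbrain patterning, had 72.5, 70.0 and 84.3 intensity units in HERVH shRNA samples, against 73.0, 74.1 and 74.0 in control shRNA samples. The HERVH shRNA samples lay on both sides of the control samples. The log2 difference was 0.03, with a 95% interval from -0.15 to 0.21 (limma, adjusted p = 0.84). The probe was near the median of its array in control samples, between the 52.1 and 54.1 percentiles. Its sign turned under quantile normalization, at -0.0084, with arrays centred on their medians, at -0.012, with the background subtracted, at -0.082, and without HERVH shRNA replicate 3, at -0.049.

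The sequence before EGR1 is shown because it holds the CArG boxes through which serum response factor, SRF, acts on immediate early genes. RefSeq places these 250 bases at chr5:138465229-138465478 on the plus strand of GRCh38.p14. Capitals mark the CArG boxes CCATATTAGG and CCATATATGG and a TGACG half-site on each side of them, read on the other strand as CGTCA.
EGR1: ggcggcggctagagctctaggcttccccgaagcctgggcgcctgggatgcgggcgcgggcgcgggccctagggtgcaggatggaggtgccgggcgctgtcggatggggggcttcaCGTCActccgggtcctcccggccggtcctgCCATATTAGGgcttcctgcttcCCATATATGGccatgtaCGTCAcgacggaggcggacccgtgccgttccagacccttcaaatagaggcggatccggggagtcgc
Within 250 bases before the start, a CArG box was found in 1.16% of all promoter entries and in 2 of the matched genes, EGR1 and EGR2. Sites further from the start, in FOS or any other gene, were not searched.

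Of the IER genes, IER2 fell and IER3 rose. IER2 (probe ILMN_1700584), a growth factor-responsive gene whose nuclear protein acts in transcription, had 246, 233 and 251 intensity units in HERVH shRNA samples, against 299.5, 322 and 307 in control shRNA samples. All HERVH shRNA samples were below all control samples, with a gap wider than the spread within either group. IER2 fell to 0.79 of the control level, a log2 difference of -0.35 with an SE of 0.08 (limma, adjusted p = 0.0018).

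IER3 (probe ILMN_1682717), also called IEX-1, a stress-inducible gene that NF-κB and p53 are known to control, had 625, 670 and 660 intensity units in HERVH shRNA samples, against 315, 290.5 and 328 in control shRNA samples. The groups were far apart. IER3 rose 2.10-fold, with a log2 difference of 1.07 and an SE of 0.08 (limma, adjusted p = 8.2e-10).

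**Figure D2:**
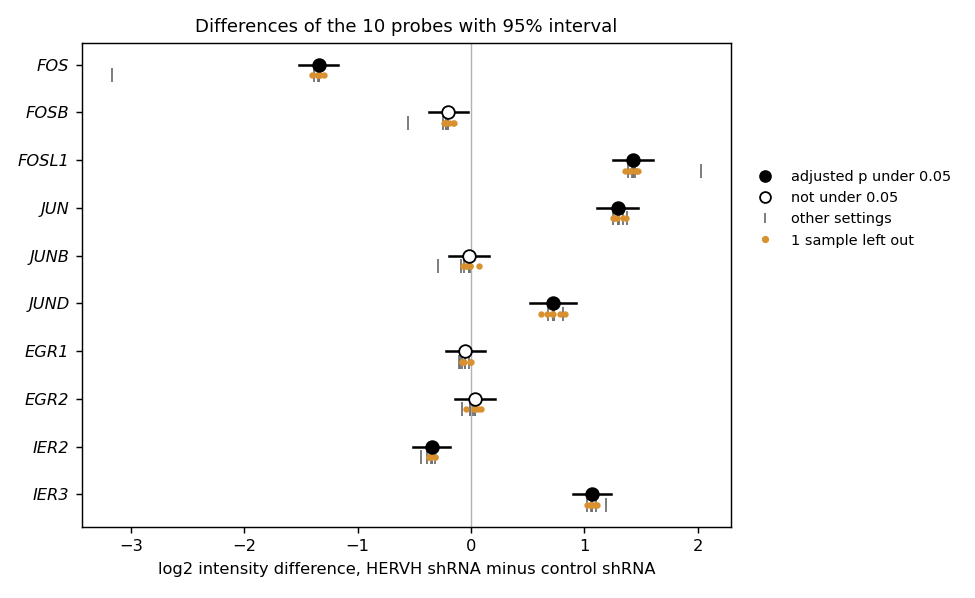
log2 intensity difference, HERVH shRNA minus control shRNA (horizontal axis), for the 10 probes (rows), with 95% intervals from limma as black lines, filled points for an adjusted p under 0.05, grey ticks for other settings and orange points for 1 sample left out. The 6 filled points keep their side of 0 under every setting drawn, while JUNB, EGR1 and EGR2 lie close to 0 and cross it under some.

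The other partners and relatives of AP-1, 14 genes each counted by the probe with the highest mean log2 value, had 8 higher and 0 lower in HERVH shRNA samples (limma, adjusted p under 0.05), with a median log2 difference of 0.26. This count and those of the lists below stand beside the 25.4% of all probes and the 51.1% of brighter probes that passed. ATF3, a stress-induced partner of JUN, had 1202, 1138 and 1157 intensity units in HERVH shRNA samples, against 329, 367 and 362 in control shRNA samples. ATF3 rose by 1.73 on the log2 scale (adjusted p = 3.2e-13). The small MAF proteins MAFF and MAFG, which lack an activating domain, rose by 0.90 and 0.69. CREB1, the cAMP response element binding protein, rose by 0.59, JDP2, a repressor that pairs with JUN, by 0.39, BATF3 by 0.32, ATF2 by 0.27 and ATF4 by 0.25. FOSL2, the remaining FOS family gene, named after its values were seen, had 93.0 ± 8.41 in HERVH shRNA samples and 83.3 ± 5.29 in control shRNA samples (SD, n = 3; limma, adjusted p = 0.22). ATF2 and ATF4 lost their calls under some alternatives, ATF4 under 8 of them. The other ATF4 probes had negative differences that did not pass.

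Among 36 other immediate early genes, 25 were higher, 3 lower and 8 did not pass, with a median log2 difference of 0.38. BTG2, an antiproliferative p53 target, averaged 1066 ± 27.2 in HERVH shRNA samples and 185.6 ± 9.67 in control shRNA samples, a log2 difference of 2.52 (limma, adjusted p = 7.3e-16). GADD45A, a growth arrest and DNA damage gene, rose by 1.90. CTGF and CYR61, matricellular genes that respond to SRF and YAP, rose by 1.77 and 1.32. PLK2, a polo-like kinase, rose by 1.50, the small GTPase gene RHOB by 1.17, the antiproliferative gene BTG1 by 1.17 and the kinase gene SGK1, named SGK on the array, by 1.08.

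The 3 that fell were MYC, ZFP36L2 and KLF10, named after their values were seen. MYC, the growth-promoting transcription factor, averaged 703 ± 72.9 in HERVH shRNA samples and 1253 ± 71.3 in control shRNA samples, and fell by 0.84 on the log2 scale (limma, adjusted p = 1.2e-07). ZFP36L2, an RNA-binding protein gene, and KLF10, a TGF-β-responsive repressor gene, fell by 0.52 and 0.45. The KLF10 probe that fell was dim in HERVH shRNA samples, at 62.3 ± 1.43. The other KLF10 probes had log2 differences of -0.11 and 0.02 and did not pass. The further EGR genes EGR3 and EGR4 and the orphan nuclear receptor genes NR4A1, NR4A2 and NR4A3, classic serum-response genes named after their values were seen, did not pass. Their brightest probes had log2 differences between -0.08 and 0.10. These probes were dim, near or below the array medians, with EGR4 at 56.7 in HERVH shRNA samples and 52.9 in control shRNA samples. Another NR4A1 probe had a log2 difference of 0.20 (limma, adjusted p = 0.0925).

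**Figure D3:**
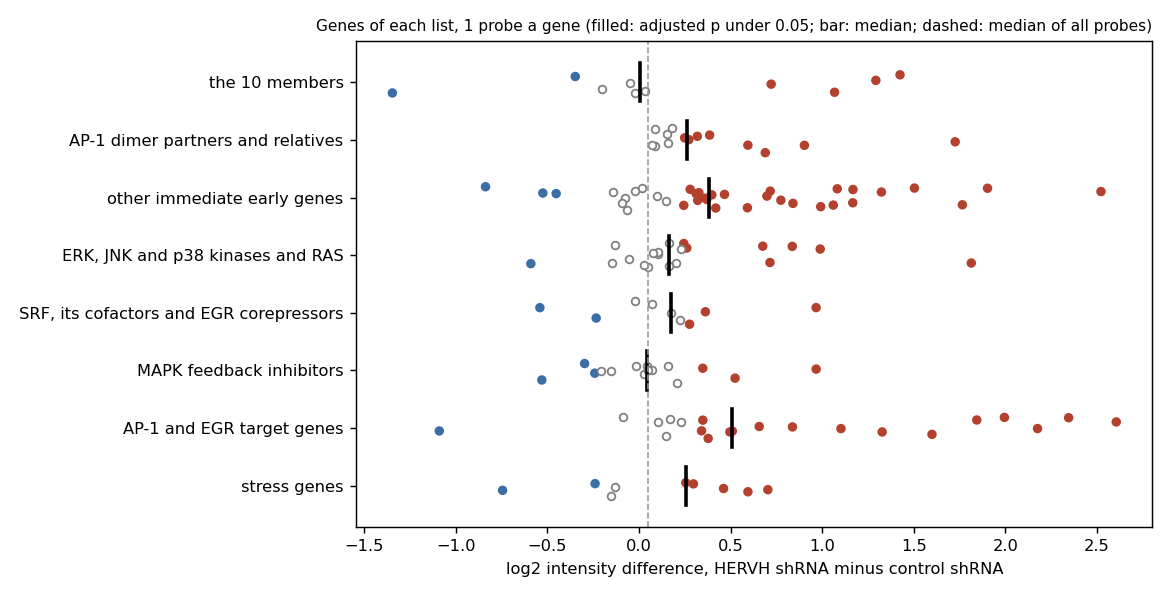
log2 intensity difference, HERVH shRNA minus control shRNA (horizontal axis), for the 10 members and for each gene of 7 lists (rows), with filled points past the test, red higher and blue lower in HERVH shRNA samples, open points not past it, black bars for list medians and a dashed line for the median of all probes, 0.047. The target genes have a median of 0.51 and reach furthest to the right, and the feedback inhibitors have a median of 0.045, next to the dashed line.

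Genes known as AP-1 or EGR targets were mostly higher. Of 21 such genes, 15 rose, 1 fell and 5 did not pass (limma, adjusted p under 0.05), beside 13.0% of all probes and 24.7% of brighter probes that were higher, with a median log2 difference of 0.51. PLAU, the urokinase plasminogen activator, had 2835, 2785 and 2562 intensity units in HERVH shRNA samples, against 551, 557 and 502 in control shRNA samples. PLAU rose by 2.35 on the log2 scale (adjusted p = 3.7e-15). SPP1, which encodes osteopontin, rose by 2.61.

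CDKN1A, the cell cycle inhibitor p21, rose by 2.18, and HMOX1, a haem-degrading stress enzyme, by 2.00. PDGFB, a growth factor, rose by 1.84, F3, tissue factor, by 1.60 and VIM, the intermediate filament vimentin, by 1.33. CD44, a hyaluronan receptor, rose to 341 ± 21.0 in HERVH shRNA samples, against 159 ± 0.874 in control shRNA samples (SD, n = 3). MMP9, a gelatinase and the 1 target that fell, named after its values were seen, averaged 184 ± 11.6 in HERVH shRNA samples and 390.6 ± 18.3 in control shRNA samples (SD, n = 3). MMP1, MMP3, AREG, EREG and TGFB1, also named after their values were seen, did not pass.

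**Figure D4:**
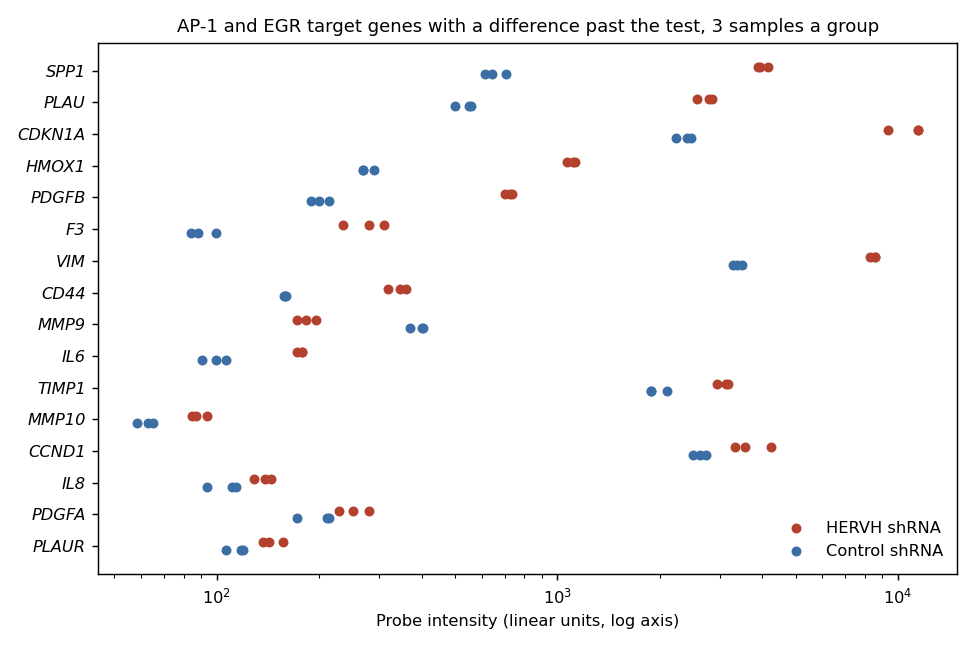
Probe intensity in linear units on a log axis (horizontal) of the 16 AP-1 and EGR target genes that passed (rows, from the widest difference down), in the 3 HERVH shRNA samples (red, upper points of each row) and the 3 control shRNA samples (blue, lower points). PLAU is at 2562 to 2835 in HERVH shRNA samples and at 502 to 557 in control shRNA samples, and MMP9 is the row whose red points lie to the left.

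VIM and CD44 are also known from mesenchymal cells, and some markers of other cell types differed between the groups. Of the fibroblast and mesenchymal markers 55.6% passed, of endoderm 40%, of mesoderm and blood 28.6%, of neuroectoderm 40% and of trophoblast 50%. These shares stand beside 25.4% of all probes and 51.1% of brighter probes. Of 9 fibroblast and mesenchymal markers, 5 rose, 0 fell and 4 did not pass, and their summed intensity ranged from 30083 to 32933 in HERVH shRNA samples and from 13211 to 13312 in control shRNA samples. These sums follow the brightest probes, here mostly TAGLN, a smooth muscle actin-binding protein, at 20033 ± 1229 in HERVH shRNA samples and 6959 ± 160 in control shRNA samples (SD, n = 3), and THY1, at 4400 ± 345 in HERVH shRNA samples and 4355 ± 62.9 in control shRNA samples. ACTA2, smooth muscle actin, averaged 3679 ± 46.4 in HERVH shRNA samples and 659 ± 51.7 in control shRNA samples, while THY1, LUM, DCN and POSTN did not pass. No probe was at 0, since the lowest value on any array was 28.9. Of 5 endoderm markers 1 rose, 1 fell and 3 did not pass, with sums of 1225 to 1296 in HERVH shRNA samples and 412 to 423 in control shRNA samples. Of 7 mesoderm and blood markers 1 rose, 1 fell and 5 did not pass, with sums of 787 to 812 in HERVH shRNA samples and 627 to 647 in control shRNA samples. The gap between these sums was about as wide as that of HAND1 alone, at 219 ± 11.4 in HERVH shRNA samples and 55.7 ± 3.20 in control shRNA samples, while EOMES fell. EOMES lost its call under some alternatives. Neuroectoderm markers rose for 2 of 5 genes, NES and TUBB3, and summed to 6429 to 7108 in HERVH shRNA samples and to 2626 to 2748 in control shRNA samples. NES and TUBB3 carried these sums, while PAX6, SOX1 and NEUROG2 did not pass. Trophoblast markers rose for 3 of 6 genes, most of all TFAP2A, with sums of 581 to 600.2 in HERVH shRNA samples and 405 to 423 in control shRNA samples. The others that rose, GATA3 and KRT7, lost their calls, GATA3 under some alternatives and KRT7 with the background subtracted. The endoderm marker that rose, and that carried its sum, was AFP, a yolk sac and liver gene, at 1021 ± 52.2 in HERVH shRNA samples and 169.7 ± 1.89 in control shRNA samples. The part of these markers in the differences of FOS, JUN and the target genes was not tested.

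Upstream of the members, 5 of 9 genes for SRF, its cofactors and the EGR corepressors passed, 3 higher and 2 lower. MKL1, an actin-regulated SRF coactivator, rose by 0.97 (limma, adjusted p = 3.7e-09), MYOCD, myocardin, by 0.36 and the corepressor gene NAB2 by 0.28. NAB1, the other EGR corepressor gene, fell by 0.54 and SRF itself by 0.23 (adjusted p = 0.039). SRF lost its call under 7 alternatives and NAB2 under 6. The count of higher genes went to 1 with the background subtracted, and the count of lower genes was 1 under quantile normalization, with the background subtracted, and without any of the 3 HERVH shRNA samples or control replicates 2 or 3.

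The kinases of the RAS, ERK, JNK and p38 routes had 8 higher, 1 lower and 12 of 21 not past the test. RPS6KA2, an ERK-activated ribosomal S6 kinase, averaged 765 ± 50.4 in HERVH shRNA samples and 217 ± 6.01 in control shRNA samples, a log2 difference of 1.81 (limma, adjusted p = 1.7e-13). HRAS rose by 0.99, MAP2K2, which encodes MEK2, by 0.84, and the S6 kinase genes RPS6KA3 and RPS6KA4 by 0.72 and 0.68. MAPK3, which encodes the ERK1 kinase, fell by 0.59. MAPK10, which encodes JNK3, rose by 0.26, and MAP2K4, a kinase that activates JNK, by 0.24, although another MAP2K4 probe fell by 0.30. The other MAPK10 probes had log2 differences from -0.06 to 0.18 and did not pass. MAPK10 lost its call under 5 alternatives and MAP2K4 under 6. The JNK genes MAPK8 and MAPK9 and the p38 gene MAPK14, named after their values were seen, did not pass. The count of higher genes was 5 with arrays centred on their medians and 5 without HERVH shRNA replicate 2.

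Of 16 MAPK feedback inhibitors, 3 rose, 3 fell and 10 did not pass, so that 37.5% passed, with a median log2 difference of 0.045 against 0.047 over all probes. DUSP8 and DUSP10, phosphatases of JNK and p38, rose by 0.97 and 0.52 (limma, adjusted p = 2.0e-08 and 3.5e-05), and DUSP4 by 0.35. SPRY1, SPRY4 and SPRED1, inhibitors of growth factor signalling to ERK, fell by 0.53, 0.30 and 0.24. DUSP1, itself an immediate early gene and named after its values were seen, averaged 231 ± 14.8 in HERVH shRNA samples and 207 ± 3.22 in control shRNA samples (SD, n = 3; limma, adjusted p = 0.17). DUSP4 lost its call under 9 alternatives and SPRED1 under 6. The DUSP4 groups overlapped, at 67.8, 52.5 and 77.5 in HERVH shRNA samples, against 50.8, 46.6 and 56.5 in control shRNA samples. The other DUSP4 probe had a log2 difference of 0.06 (limma, adjusted p = 0.69).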

How the data were processed

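Intensities of 47230 Illumina probes in 6 H1 samples, 3 with HERVH shRNA and 3 with control shRNA, were taken from the deposited series matrix, whose columns carry the sample accessions. Per the labels' protocols, 500 ng of total RNA a sample had been amplified and labelled with biotin. GenomeStudio is named, without a version, by the submitters' processing notes. How the authors normalized the arrays and handled background is not given in the sources used here, nor is a genome build. The deposited intensity values are on a linear scale, with array medians within 0.052 on the log2 scale and no value near 0. Direction follows the column names. Gene names came from the probe identifiers of the authors' non-normalized table, which gave all identifiers and names for 43960 probes. The 12 signal and detection p-value columns of that table carry running numbers that no label uses and were not used, so detection was not assessed. Array number limits the precision, and intensities hold no depth.

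Values under 10 would have been set to 10, which applied to 0 values, and log2 was taken. The arrays were not normalized again, since their medians differed by less than 0.1. limma 3.58.1 in R 4.3.3 fitted HERVH shRNA minus control shRNA over all probes, two-sided, with Benjamini-Hochberg adjustment and a threshold of 0.05. Folds are ratios of intensities without background subtraction and may understate changes of dim probes. Levels of different probes are not compared. The fit was tested on simulated data for this comparison over 47230 probes. It recovered 94% of 100 changes of 1 and 46% of 100 changes of 0.5 on the log2 scale. No other probe was changed in the simulation, whereas 25.4% of all probes passed in the data. The adjusted threshold was therefore stricter in the simulation, and the 46% does not give the share found in the data. Changes smaller than these can still be missed. A gene with several probes is represented by its brightest, the one with the highest mean log2 value over the 6 samples. All members were named whatever their values. From each of 7 lists up to 8 genes past the test were named by absolute log2 difference, with exceptions marked as named after their values were seen. The members and lists were chosen with earlier results of these data known. Samples with the same number in the titles correlated in their deviations from group means at 0.097, -0.013 and 0.027, so the numbers were not taken as pairs. Promoter windows came from RefSeq (GRCh38.p14) and were searched on both strands with Python 3.11 for 7 motifs, CRE TGACGTCA, its half-site TGACG, TRE TGANTCA, TGACATCA, the CArG box, the MEF2 box and TATAAA. The full element contains the half-site. A few listed genes are not reported here.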

Additional observations from a re-analysis of the deposited data

How the results depend on the processing

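The alternatives were quantile normalization, centring on array medians, floors of 1 and 50, a filter keeping probes above the median mean, an intensity-dependent or robust prior variance, array weights, the replicate block, each sample left out, an adjusted p under 0.1 for the counts, and background subtraction, which was added after the data were seen. FOS, FOSL1, JUN, JUND, IER2 and IER3 kept direction and call under each alternative run. Their highest adjusted p over the alternatives was 0.02, for JUND with background subtraction. FOSB passed with arrays centred on their medians (log2 difference -0.24) and with the filter (-0.20). JUNB reversed without control replicate 1 (0.066), EGR1 without HERVH shRNA replicate 2 (0.0027), and EGR2 under quantile normalization (-0.0084), centring (-0.012), background subtraction (-0.082) and without HERVH shRNA replicate 3 (-0.049). With a sample left out, JUNB ran from -0.075 to 0.066, EGR1 from -0.081 to 0.0027 and EGR2 from -0.049 to 0.085. JUNB has no value under the filter. The count of member probes that passed was 6 or 7 throughout, and that of all probes was 9978 to 14109. With the replicate block 12083 probes and 6 member probes passed, and the block changed no call of a member. Deviations of 1 of the 3 HERVH shRNA samples correlated best with its own number. Of 102 listed and marker genes followed, 78 kept direction and call under all alternatives, 0 reversed and the others lost a call under at least 1, the cause of which was not tested. Among stress genes the count of higher genes was 3 without HERVH shRNA replicate 3, and that of lower genes 1 with quantile normalization, with a floor of 50, without HERVH shRNA replicates 1 or 2 and without control replicates 2 or 3. The alternative of normalizing the non-normalized table with neqc was not run, since its columns were matched to no sample. Dim signal limits what can be said of JUNB, EGR2, DUSP4, EGR3, EGR4 and the NR4A genes. In HERVH shRNA samples the same holds for FOS and KLF10.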

Other observations

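Stress genes outside the immediate early set were mixed. Of 9, 5 rose, 2 fell and 2 did not pass (limma, adjusted p under 0.05), with a median log2 difference of 0.26. DDIT3, which encodes the stress factor CHOP, averaged 168 ± 6.16 in HERVH shRNA samples and 103 ± 5.47 in control shRNA samples and rose by 0.70. TRIB3, a target of ATF4 and CHOP, rose by 0.59, MDM2, a p53 target, by 0.46 and the amino acid synthesis gene ASNS by 0.30. HSPA5, the endoplasmic reticulum chaperone BiP, averaged 267 ± 12.8 in HERVH shRNA samples and 448 ± 27.7 in control shRNA samples and fell by 0.74. The heat shock genes HSPA1A and HSPA1B, near-identical copies whose probes may bind both, had log2 differences of 0.26 and -0.24.

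Probes of the same gene did not always move alike. The brighter SOX2 probe had a log2 difference of -0.47, and the other probe one of -2.17, with 554 ± 60.2 in HERVH shRNA samples and 2482 ± 39.6 in control shRNA samples. The bright DUSP6 probe had 1785 ± 71.4 in HERVH shRNA samples and 1804 ± 115 in control shRNA samples, while a dim one had 84.9 ± 3.74 in HERVH shRNA samples and 179 ± 11.3 in control shRNA samples. Of 2 KLF4 probes of nearly equal mean, the one with the higher mean log2 value did not pass, at 102 ± 7.16 in HERVH shRNA samples and 92.3 ± 7.46 in control shRNA samples, while the other rose, with 129 ± 6.37 in HERVH shRNA samples and 66.9 ± 8.55 in control shRNA samples. SPRY4 fell by 0.30 at its brightest probe and by 1.11 at another. ATF3, CREB1, MAFF, MAFG and ATF4 each had 1 or more dimmer probes that did not pass. So did KLF10, HRAS, RPS6KA2, RPS6KA3, MAPK10, DUSP4, DUSP10, SPRY1 and SPRY4. The same held for CD44, PDGFB, CDKN1A, MDM2, POU5F1, TAGLN and TFAP2A. MAP2K6 and ELK4, named after their values were seen, counted as not passing by their brightest probes. Each had a dimmer probe that passed with the opposite sign, at -0.58 and 0.27 (limma, adjusted p = 4.7e-05 and 0.017). The other ATF4 probes had differences of the opposite sign, -0.15 and -0.13 (limma, adjusted p = 0.17 and 0.28). The 10 members had 1 probe each, so no such check was possible for them.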
